A study of Mus musculus with 4 samples.

Results

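The genes described here are 9 members of the PI3K, AKT, mTOR and FOXO pathway, namely Pik3cd, Akt1, Akt2, Tsc1, Tsc2, Mtor, Foxo1, Foxo3 and Foxo4. They were chosen by name, out of 12417 genes with a value in at least 1 library, and 8 of the 9 had a value in all 4 libraries (8246 genes did). RNA was measured in sorted bone marrow cells of C57BL/6 mice, with HSC and CLP each taken from WT and from GRK6-/- animals, which made 4 libraries, 1 per group and without replicates. HSC (hematopoietic stem cells) were sorted as Lin-c-kit+sca-1+ cells, and CLP (common lymphoid progenitors) carried Il-7Ra in addition. GRK6 is a kinase that phosphorylates activated G protein-coupled receptors, and the methods describe GRK6-/- mice as lacking exons 3 to 9 of the gene, with mice of 8 to 12 weeks and WT littermates in the study. Each library was a pool of 13 to 15 hand-picked cells from 3 to 4 mice, and the cDNA went through 20 and then 10 cycles of PCR. The comparison asks whether loss of GRK6 goes with different transcript levels of this pathway in stem cells and in lymphoid progenitors.

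In this pathway, PI3K at the membrane makes the lipid that recruits the kinase AKT. AKT phosphorylates TSC2, which with TSC1 holds back the small GTPase RHEB, the activator of the mTOR kinase in complex 1, and it phosphorylates FOXO transcription factors, which then bind 14-3-3 proteins and leave the nucleus. FOXO factors are known to keep hematopoietic stem cells quiescent and protected from oxidative stress, and FOXO1 is known to drive Il7r and Rag gene expression in lymphoid progenitors. The libraries measure mRNA and carry no information on phosphorylation.

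The AKT recognition sequence, arginine, any residue, arginine, any 2 residues and then serine or threonine, occurs 3 times in the coding sequence of each of the 3 FOXO members. These stretches are shown because they tie the FOXO genes to the AKT genes whose transcripts are described here. The windows of 42 bases were read 5′ to 3′ on the coding strand from mm9 (NCBIM37) with GENCODE vM1 transcripts, and the 18 bases of the 6 residues are in capitals. Residues are counted from the start methionine, and exons from the first exon of the transcript.
Foxo1 threonine 24, exon 1, chr3:52072766-52072807, plus strand: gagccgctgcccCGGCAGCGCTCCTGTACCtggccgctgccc
Foxo1 serine 253, exon 2, chr3:52149069-52149110, plus strand: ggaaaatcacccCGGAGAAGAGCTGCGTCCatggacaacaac
Foxo1 serine 316, exon 2, chr3:52149258-52149299, plus strand: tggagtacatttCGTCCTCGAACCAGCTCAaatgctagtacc
Foxo3 threonine 32, exon 2, chr10:41995132-41995173, minus strand: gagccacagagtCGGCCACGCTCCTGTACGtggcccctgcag
Foxo3 serine 252, exon 3, chr10:41917558-41917599, minus strand: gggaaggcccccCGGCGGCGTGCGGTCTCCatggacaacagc
Foxo3 serine 314, exon 3, chr10:41917372-41917413, minus strand: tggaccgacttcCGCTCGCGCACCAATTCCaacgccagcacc
Foxo4 threonine 32, exon 1, chrX:98450226-98450267, plus strand: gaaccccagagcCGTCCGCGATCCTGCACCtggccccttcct
Foxo4 serine 197, exon 2, chrX:98453624-98453665, plus strand: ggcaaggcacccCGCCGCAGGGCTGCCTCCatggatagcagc
Foxo4 serine 262, exon 2, chrX:98453819-98453860, plus strand: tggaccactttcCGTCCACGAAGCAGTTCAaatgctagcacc
The first, the second and the third windows of the 3 genes shared between 26 and 34 of 42 bases in pairs. The lowest figure was that of Foxo1 and Foxo3 at the third site, and the highest that of Foxo1 and Foxo4 at the same site. In the coding sequence of Tsc2 the same 6-residue pattern occurred 7 times in 1812 residues. A match to the pattern is a description of the sequence and not a phosphorylation site by itself.

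The authors deposited FPKM, fragments scaled to transcript length and to the mapped total, which puts genes of different length on 1 scale. Coverage along transcripts was not checked in these oligo(dT)-primed libraries, so the order of genes and the ratios between genes below are those of the deposited values. From the steps in the lowest values the libraries were estimated to be scaled to 2790000 to 4360000 fragments, which may be too low. The paper gives a larger number of reads obtained for each lineage. All estimated fragments and counting intervals below depend on this estimate. Estimated fragments behind a value are given with exact Poisson intervals at the 95% level. These and the intervals of the ratios treat fragments as independent and cover counting error only. They cover neither PCR copies of the same molecule and molecules lost before PCR, nor the spread between cells or mice. Grk6 itself had 42.69 FPKM (WT) and 89.4 FPKM (GRK6-/-) in HSC and 26.92 FPKM (WT) and 57.58 FPKM (GRK6-/-) in CLP. The value covers the whole gene, including sequence outside the deleted exons, so it does not check the labels, and WT and GRK6-/- below name the libraries as labelled. All 8 HSC markers with a value were detected in all 4 libraries, so their detection does not tell HSC from CLP. Their sum was 344.5 (WT) and 467.2 FPKM (GRK6-/-) in HSC and 336.9 (WT) and 490 FPKM (GRK6-/-) in CLP. Single HSC markers differed between the genotypes in either direction. Il7r stood at 0 (WT) and 1.083 FPKM (GRK6-/-) in HSC and at 120.1 (WT) and 75.15 FPKM (GRK6-/-) in CLP. The 6 CLP markers together summed to 168.4 (WT) and 117.5 FPKM (GRK6-/-) in HSC and to 1318 (WT) and 940.9 FPKM (GRK6-/-) in CLP. In CLP Il7r, Rag1, Rag2 and Dntt were lower in GRK6-/-, with Rag2 at 0 there. Flt3 (124 FPKM in WT, 219.2 in GRK6-/-) and Ebf1 (24.99 and 82.05 FPKM) were higher. Markers of other cells were present, the myeloid list at a sum of 7643 to 16700 FPKM. The erythroid list, with 7 of 11 markers measured, summed to 44.37 (WT) and 778 FPKM (GRK6-/-) in HSC and to 30.89 (WT) and 36190 FPKM (GRK6-/-) in CLP, and Hba-a2 and Beta-s took up 6.21% of all FPKM in GRK6-/- CLP. The pre-B list, with 6 of 7 measured, summed to 41.91 and 35.45 FPKM in HSC and to 160.9 and 890.8 FPKM in CLP, WT first. Nearly all of the HSC sums was Cd79b, at 41.91 (WT) and 34.81 FPKM (GRK6-/-), and Igll1 and Vpreb2 were at 0 in both HSC libraries. In CLP Vpreb2 was lower in GRK6-/-, against the sum. Libraries of so few cells cannot separate fewer cells of a type from less RNA per cell in any result that follows.

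Pik3cd encodes p110 delta, the catalytic PI3K subunit that is most abundant in leukocytes, and lies on chr4 (149023275 to 149075738, minus strand, mm9). Its level in HSC was 17.99 FPKM (WT) and 14.78 FPKM (GRK6-/-), and in CLP 28.09 FPKM (WT) and 18.82 FPKM (GRK6-/-). WT CLP was the highest library and GRK6-/- HSC the lowest. The log2 ratio of FPKM + 1, GRK6-/- over WT, was -0.27 in HSC and -0.55 in CLP, both short of the 2-fold threshold that was used throughout. About 264 to 623 fragments lay behind each value, and the counting interval of the WT over GRK6-/- ratio was 1.02 to 1.44 in HSC and 1.29 to 1.73 in CLP.

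Akt1 and Akt2 encode the 2 AKT kinases among the members, Akt1 on chr12 (113892032 to 113912487, minus strand) and Akt2, best known for its part in insulin-stimulated glucose uptake, on chr7 (28376579 to 28425140, plus strand). Akt1 stood at 68.73 FPKM (WT) and 70.1 FPKM (GRK6-/-) in HSC, and at 72.65 FPKM (WT) and 75.93 FPKM (GRK6-/-) in CLP. The 4 values lay within 0.14 of each other on the log2(FPKM + 1) scale, and Akt1 was the highest of the 9 genes in every library. Of 4627 genes with a mean of 10 to 100 FPKM and a value in all 4 libraries, 5 had a range as small, Akt1 included, and the median range was 1.69. Akt1 ranked between the 88.2 and the 89.2 percentile of the genes with a value in each library. Its WT over GRK6-/- fragment ratio had counting intervals of 0.874 to 1.1 in HSC and 0.859 to 1.07 in CLP.

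Akt2 had 11.93 FPKM (WT) and 25.35 FPKM (GRK6-/-) in HSC, and 22.49 FPKM (WT) and 17.14 FPKM (GRK6-/-) in CLP. WT HSC was the lowest of the 4 libraries and GRK6-/- HSC the highest. In HSC the value was 2.13 times as high in GRK6-/- as in WT, a log2 ratio of 1.03, which lay just past the threshold. The WT over GRK6-/- fragment ratio was 0.471 with a counting interval of 0.39 to 0.567, which includes 2-fold. In CLP the log2 ratio was -0.37, the other way. The level of Akt1 was 5.76 times that of Akt2 in WT HSC and 2.77 times in GRK6-/- HSC, while in CLP it was 3.23 times (WT) and 4.43 times (GRK6-/-). The sum of both was 80.65 FPKM in WT HSC and 93.06 to 95.45 in the other libraries.

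Tsc1 and Tsc2 encode 2 subunits of the complex that turns RHEB off. Tsc1 lies on chr2 (28496763 to 28546687, plus strand). Tsc2, the subunit with the GTPase-activating domain, lies on chr17 (24732455 to 24769574, minus strand). Tsc1 was low in all libraries, at 1.14 (WT) and 1.017 FPKM (GRK6-/-) in HSC and 2.738 (WT) and 1.993 FPKM (GRK6-/-) in CLP, on about 25 to 92 fragments. Its GRK6-/- over WT log2 ratios were -0.09 in HSC and -0.32 in CLP, and both counting intervals included equal levels (0.618 to 1.93 and 0.943 to 2.01 for WT over GRK6-/-).

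Tsc2 stood at 13.01 FPKM (WT) and 4.163 FPKM (GRK6-/-) in HSC, and at 10.75 FPKM (WT) and 11.34 FPKM (GRK6-/-) in CLP. GRK6-/- HSC was the library that stood apart, and the other 3 lay close together. In HSC the level in WT was 3.12 times that in GRK6-/-, a log2 ratio of -1.44 for GRK6-/- over WT. The estimated fragments were 234 and 99, a ratio of 3.11 with a counting interval of 2.45 to 3.97. In CLP the log2 ratio was 0.07, and the interval for WT over GRK6-/-, 0.789 to 1.14, included equal levels. Tsc2 overlaps the 3′ end of Pkd1 on the other strand, and reads of such a pair cannot be told apart unless strand was used in counting. Pkd1 was listed at 1.461 FPKM in GRK6-/- HSC and had no entry elsewhere. The level of Tsc2 was 11.4 times that of Tsc1 in WT HSC and 4.09 times in GRK6-/- HSC, while in CLP it was 3.93 times (WT) and 5.69 times (GRK6-/-).

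Mtor, the kinase shared by mTOR complexes 1 and 2, lies on chr4 (147822691 to 147931794, plus strand) and had the widest range of the 9 genes, 4.00 on the log2(FPKM + 1) scale. It stood at 15.65 FPKM (WT) and 13.21 FPKM (GRK6-/-) in HSC, and at 5.2 FPKM (WT) and 0.04046 FPKM (GRK6-/-) in CLP. The HSC libraries were close, WT CLP was lower, and GRK6-/- CLP was near the limit of detection. In that library the value amounts to about 1 fragment (interval 0.0253 to 5.57), against 194 in WT CLP, 387 in WT HSC and 430 in GRK6-/- HSC. The GRK6-/- over WT log2 ratio was -2.58 in CLP and -0.23 in HSC. The fragment ratio of WT over GRK6-/- in CLP was 124, with a counting interval of 22 to 4930. On log2(FPKM + 0.1) the CLP ratio was -5.24, since the added constant sets how far a value near 0 can fall. The GRK6-/- CLP library was also the one with 36190 FPKM of erythroid and 890.8 FPKM of pre-B markers, and their part in the Mtor value was not tested.

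**Figure D1:**
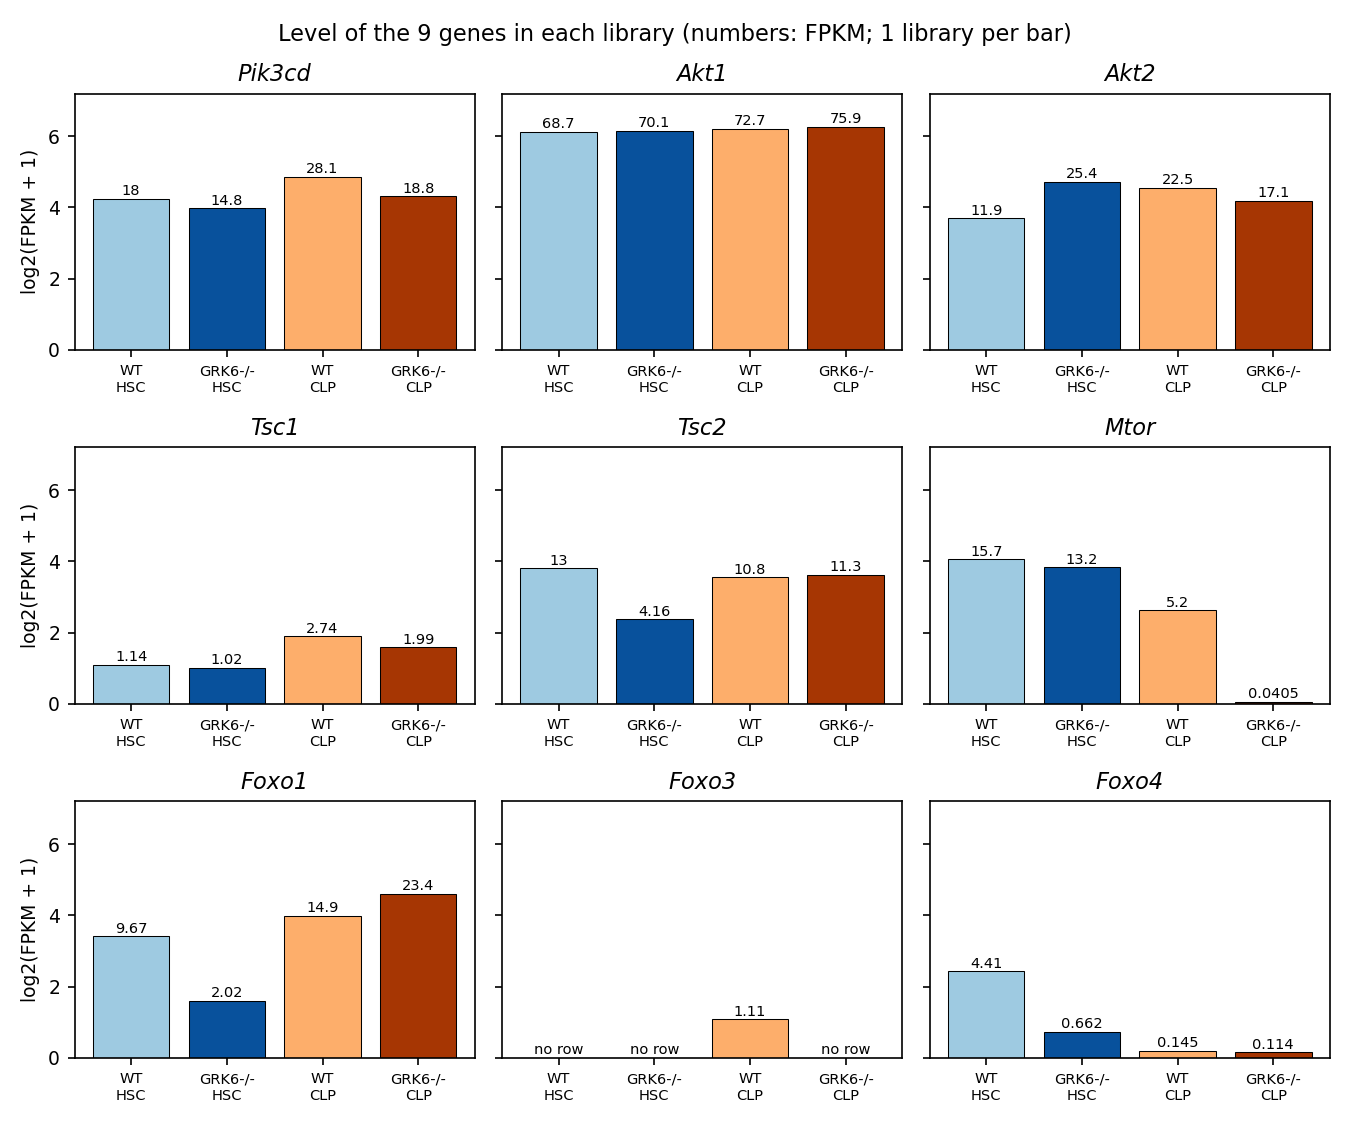
Level of each of the 9 genes in the 4 libraries, as log2(FPKM + 1) on the vertical axis with the FPKM printed on each bar, 1 library per bar and no error bars since there are no replicates. Akt1 is level at 68.73 to 75.93 FPKM, Mtor is nearly absent from GRK6-/- CLP at 0.04046 FPKM, and Tsc2, Foxo1 and Foxo4 are lower in GRK6-/- HSC than in WT HSC.

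The FOXO members lie on chr3 (Foxo1, 52072259 to 52154031, plus strand), chr10 (Foxo3, 41905592 to 41996548, minus strand) and chrX (Foxo4, 98449867 to 98456212, plus strand). Foxo1 had 9.668 FPKM (WT) and 2.02 FPKM (GRK6-/-) in HSC, and 14.89 FPKM (WT) and 23.39 FPKM (GRK6-/-) in CLP. GRK6-/- HSC was the lowest library and GRK6-/- CLP the highest, so the order of the genotypes was opposite in the 2 populations. In HSC the WT level was 4.79 times the GRK6-/- level, a log2 ratio of -1.82. It rested on 155 and 43 fragments, with a counting interval of 3.36 to 6.81 around a fragment ratio of 4.74. In CLP the GRK6-/- level was 1.57 times that of WT, a log2 ratio of 0.62, short of 2-fold. Foxo1 is a known activator of Il7r, which was lower in GRK6-/- CLP (75.15 FPKM) than in WT CLP (120.1 FPKM), and of Rag1, at 2.467 and 23.03 FPKM. The summed pre-B markers moved the same way as Foxo1 in CLP, 890.8 FPKM in GRK6-/- against 160.9 in WT. Vpreb2 on that list went the other way, at 4.752 FPKM in GRK6-/- against 70.58 in WT. The part of the pre-B markers in the Foxo1 value was not tested.

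Foxo4 had 4.408 FPKM (WT) and 0.6623 FPKM (GRK6-/-) in HSC, and 0.1447 FPKM (WT) and 0.1141 FPKM (GRK6-/-) in CLP. WT HSC was well above the other 3 libraries. In HSC the WT level was 6.66 times the GRK6-/- level, a log2 ratio of -1.70, and the counting interval of the fragment ratio ran from 3.04 to 16.3 on 40 and 8 fragments. The CLP values rest on about 2 and 1 fragments, and no fold is given for them. The summed megakaryocyte markers stood at 149.4 FPKM in WT and 13.11 in GRK6-/- HSC, moving the same way as Foxo4, Foxo1 and Tsc2, and in CLP at 13.52 and 117.3 FPKM. Their part in these values was not tested.

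Foxo3, known from mouse knockouts as the FOXO gene on which stem cell maintenance most depends, had a value only in WT CLP, 1.115 FPKM on about 33 fragments. It had no entry in the other 3 libraries, and no joint entry named it. A missing entry was counted as 0, which gives a CLP log2 ratio of -1.08 on FPKM + 1 that depends on the added constant. No fold is given, and the files do not say why an entry is missing.

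The summed FOXO level was 14.08 FPKM (WT) and 2.682 FPKM (GRK6-/-) in HSC, and 16.15 FPKM (WT) and 23.5 FPKM (GRK6-/-) in CLP. Foxo1 supplied 68.7% (WT) and 75.3% (GRK6-/-) of it in HSC, and 92.2% (WT) and 99.5% (GRK6-/-) in CLP. Foxo4 made up the remainder in both HSC libraries, and Foxo3 most of it in WT CLP.

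**Figure D2:**
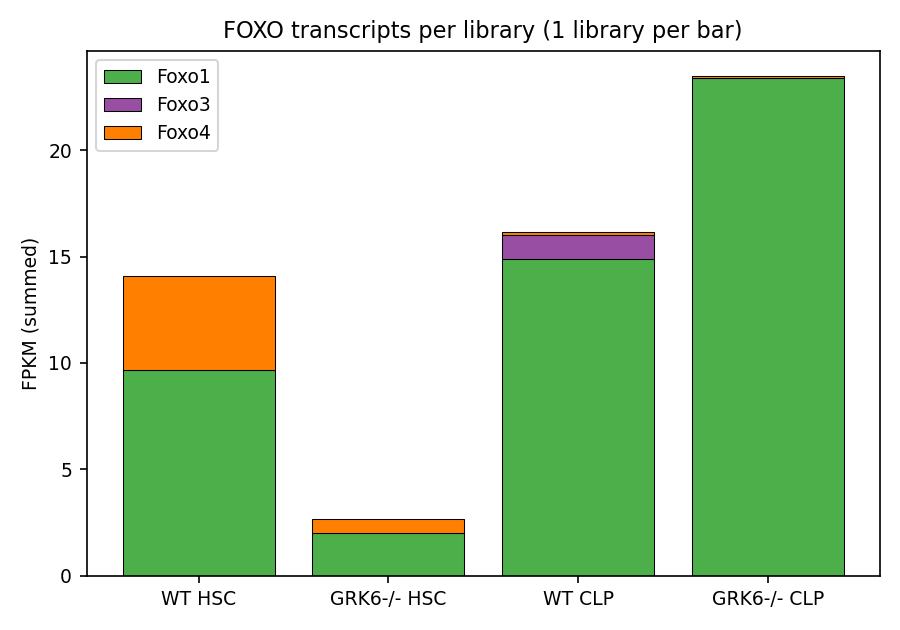
Summed FPKM of Foxo1, Foxo3 and Foxo4 on the vertical axis in each of the 4 libraries, 1 library per bar, each bar divided by gene. The GRK6-/- HSC bar is lowest at 2.682 FPKM and the GRK6-/- CLP bar highest at 23.5 FPKM, nearly all of it Foxo1.

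The order of the 9 genes by FPKM was led by Akt1 in each library. In WT HSC it continued with Pik3cd, Mtor, Tsc2, Akt2, Foxo1, Foxo4 and Tsc1. In GRK6-/- HSC Akt2 moved to the second place, and in GRK6-/- CLP Foxo1 did so at 23.39 FPKM. In HSC Mtor held the third place in WT and the fourth in GRK6-/-, and in CLP the sixth in WT and the eighth in GRK6-/-. With 1 library per group the spread behind neighbours in this order is unknown, so no neighbour can be said to differ from the next.

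In HSC, 4 of the 8 members with a value passed the 2-fold threshold, Akt2 higher and Tsc2, Foxo1 and Foxo4 lower in GRK6-/-, where 37.4% of all 11624 genes passed it. The median log2 ratio of the members was -0.25, beside 0.05 over all genes, and the median absolute ratio was 0.65 beside 0.72. The share of genes past 2-fold in HSC varied with level. It was 18.4% at a mean under 1 FPKM, where the added 1 limits the ratio, and 19.8% at 100 FPKM or more. Of all genes with a mean of 1 to 10 FPKM 50.8% passed, and of the 4 members in that band (Foxo1, Foxo4, Tsc1 and Tsc2) 3 did. Of genes with a mean of 10 to 100 FPKM 35.6% passed, and of Akt1, Akt2, Mtor and Pik3cd 1 did. Erythroid markers differed between the same libraries, 778 FPKM in GRK6-/- HSC and 44.37 in WT HSC, and their part in the result was not tested.

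In CLP, 2 of the 9 members passed, Mtor and Foxo3, both lower in GRK6-/-, where 50.0% of 11191 genes passed. The count was below that share. The median absolute log2 ratio was 0.37 for the members beside 0.9995 over all genes, and the signed medians were -0.32 and 0.05. None of the 5 members with a mean of 10 to 100 FPKM (Akt1, Akt2, Foxo1, Pik3cd and Tsc2) passed, where 48.1% of genes in that band did. No member passed in the same direction in both populations, where 10.1% of 10398 genes did. Akt2, Tsc2 and Foxo1 had ratios of opposite sign in HSC and CLP, and the other members with 2 ratios had the same sign in both.

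**Figure D3:**
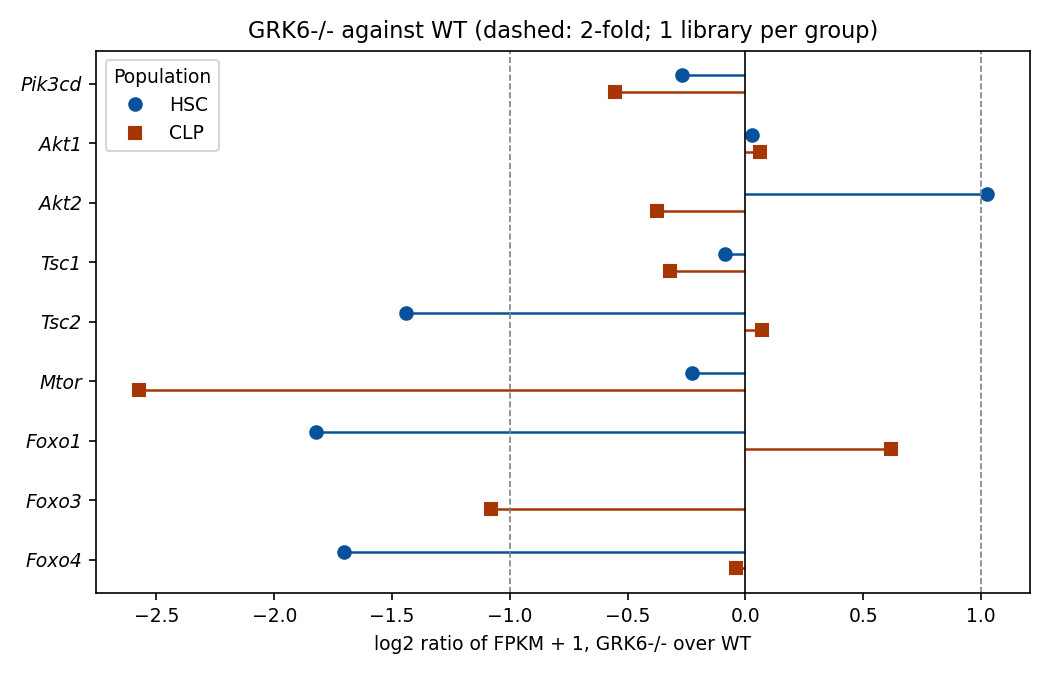
Log2 ratio of FPKM + 1, GRK6-/- over WT, on the horizontal axis for each of the 9 genes, with circles for HSC and squares for CLP, 1 library per group, and dashed lines at 2-fold. Tsc2, Foxo1 and Foxo4 lie past the lower line in HSC (-1.44, -1.82 and -1.70), Mtor (-2.58) and Foxo3 (-1.08) in CLP, and Foxo3 has no HSC point because it had no entry in either HSC library.

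Between the populations of the same genotype, 3 of 9 members passed 2-fold in WT, where 46.5% of all genes did. Foxo3 was higher and Mtor and Foxo4 lower in WT CLP than in WT HSC, with log2 ratios of -1.43 for Mtor and -2.24 for Foxo4. In GRK6-/-, 3 of 8 members passed, where 45.6% of all genes did. Foxo1 (3.01) and Tsc2 (1.26) were higher and Mtor (-3.77) was lower in GRK6-/- CLP than in GRK6-/- HSC. Mtor was thus the member past 2-fold between populations in both genotypes. The share of all genes that did so was not counted, and the GRK6-/- CLP value of Mtor rests on about 1 fragment. The ratios between populations share libraries with the GRK6-/- over WT ratios and are not independent of them.

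The genotype effect that HSC and CLP share was estimated with limma, adjusting for population, on log2(FPKM + 1) of the 4 libraries, which leaves 1 residual degree of freedom. Foxo3 and Foxo4 did not reach 1 FPKM in 2 libraries and were not tested. Of the 7 members tested, 0 had an adjusted p-value under 0.05, and neither did any of the 9709 genes (0.0%), of which 503 had an unadjusted p under 0.05 by limma, none of them a member. Mtor had the largest difference, -1.40 with a standard error of 0.92 and a limma adjusted p of 0.983. For the population effect limma also called 0 of 9709 genes (0.0%), with 633 at an unadjusted p under 0.05. Among these was Mtor, lower in CLP by a log2 difference of -2.60 with a standard error of 0.92 and a limma adjusted p of 0.746, and in both genotypes CLP was the lower library. The lowest unadjusted limma p of any member for this effect was 0.0349, and it was 0.0729 with a pseudocount of 0.1 and 0.0606 with a variance trend. Foxo1 was higher in CLP by 1.79 with a standard error of 0.93 and a limma adjusted p of 0.813. The fit can show only large effects shared by both pairs of libraries, so these values do not show that the members were alike between groups.

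Around the members, 119 further genes of the pathway were listed by role, and 115 had a value. In HSC 23 of 112 were higher and 24 lower in GRK6-/- by 2-fold, and in CLP 28 of 110 were higher and 27 lower. That made 47 genes in HSC, where 37.4% of all genes passed, and 55 in CLP, where 50.0% did, so the counts over the lists lay near those shares. The counts of each list below are past 2-fold and stand beside the same 37.4% in HSC and 50.0% in CLP, either way. Upstream of Pik3cd, 6 of 15 receptors and adaptors were higher and 2 lower in HSC, and 4 of 14 higher and 2 lower in CLP. Insr, the insulin receptor, was higher in GRK6-/- in both populations (1.684 and 5.023 FPKM in WT and GRK6-/- HSC, 8.679 and 89.63 in CLP), as were the insulin receptor substrate Irs2 and the erythropoietin receptor Epor. Epor is also on the erythroid list, which was higher in the same libraries. Gab1, an adaptor that binds PI3K, was lower in both (7.165 and 0.7381 FPKM in HSC, 2.074 and 0.2183 in CLP). Pik3r1, whose p85 alpha product stabilises p110 delta, had 6.213 (WT) and 2.004 FPKM (GRK6-/-) in HSC and 23.97 (WT) and 6.014 FPKM (GRK6-/-) in CLP, lower in GRK6-/- in both as Pik3cd was, but past 2-fold. Of 7 measured class I subunits, 1 was higher and 2 lower in HSC, and 1 higher and 3 lower in CLP.

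Among the PI3K antagonists, 0 of 8 were higher and 1 lower in HSC, and 3 of 6 higher and 2 lower in CLP. Inpp4a, a phosphatase of PI3K lipid products, was lower in GRK6-/- in both populations (4.715 and 0.6717 FPKM in HSC, 6.733 and 1.765 in CLP, WT first). Beside Akt1 and Akt2, the list of AKT-level kinases and substrates had a median log2 ratio of -1.13 in HSC, with 5 of 7 lower and 1 higher (37.4% of all genes either way), and of -1.28 in CLP, with 4 lower and 1 higher (50.0%). Akt1s1, the AKT substrate that inhibits mTOR complex 1, had 68.22 (WT) and 30.62 FPKM (GRK6-/-) in HSC and 56.25 (WT) and 3.894 FPKM (GRK6-/-) in CLP. Gsk3a, a kinase inhibited by AKT, had 29.52 and 13.16 FPKM in HSC and 117.7 and 15.14 FPKM in CLP, WT first, and Sgk3 was also lower in GRK6-/- in both. Pdpk1, which phosphorylates AKT, was lower in GRK6-/- HSC (1.731 against 7.159 FPKM). In CLP it was higher in GRK6-/- (9.853 against 5.652 FPKM), short of 2-fold.

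Beside Mtor, 4 of 7 mTOR complex genes were lower and 0 higher in GRK6-/- HSC (37.4% of all genes either way), and 2 of 8 were higher and 2 lower in CLP (50.0%), and the same shares stand beside the lists that follow. Rictor, the defining subunit of mTOR complex 2, was lower in both populations (1.44 and 0.189 FPKM in HSC, 9.677 and 3.964 in CLP), and Prr5 was at 20.44 FPKM in WT HSC and 0.4482 in GRK6-/- HSC. Mapkap1, another complex 2 subunit, had 10.53 FPKM in WT CLP and no entry in GRK6-/- CLP, the library in which Mtor was at about 1 fragment. Most of the RHEB, RAG and lysosome inputs carry the amino acid signal to mTOR complex 1 in parallel to the TSC genes. Of this list 5 of 16 were higher and 0 lower in HSC, led by Nprl2. In CLP 3 of 14 were higher and 3 lower. The list does not separate inputs that activate complex 1 from those that inhibit it. Its counts are therefore not a measure of the input to complex 1. The energy and stress inputs split 1 higher and 2 lower of 10 in HSC and 4 higher and 3 lower of 11 in CLP. Of 12 effectors of mTOR complex 1, 6 were higher and 0 lower in HSC, and 3 higher and 1 lower in CLP. The S6 kinase gene Rps6kb2 was higher in GRK6-/- in both, but in CLP it had no entry in WT and 2.075 FPKM in GRK6-/-.

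Of the FOXO partners and regulators, 1 of 10 was higher and 4 lower in HSC, and 2 higher and 1 lower in CLP. Of the FOXO target genes, 2 of 20 were higher and 4 lower in HSC, where Foxo1 and Foxo4 were lower in GRK6-/-, and 5 of 21 higher and 6 lower in CLP, beside 37.4% and 50.0% of all genes either way. In HSC the median log2 ratio of the targets was 0.28, beside 0.05 over all genes, -1.82 for Foxo1 and -1.70 for Foxo4. In CLP it was -0.12, beside 0.05 over all genes. The list does not separate targets that FOXO factors activate from those they repress. Its signed median is therefore not a measure of FOXO activity. Cited2, a transcriptional coregulator gene, had the largest difference downward in HSC among the targets with at least 5 FPKM (60.77 FPKM in WT, 21.42 in GRK6-/-).

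**Figure D4:**
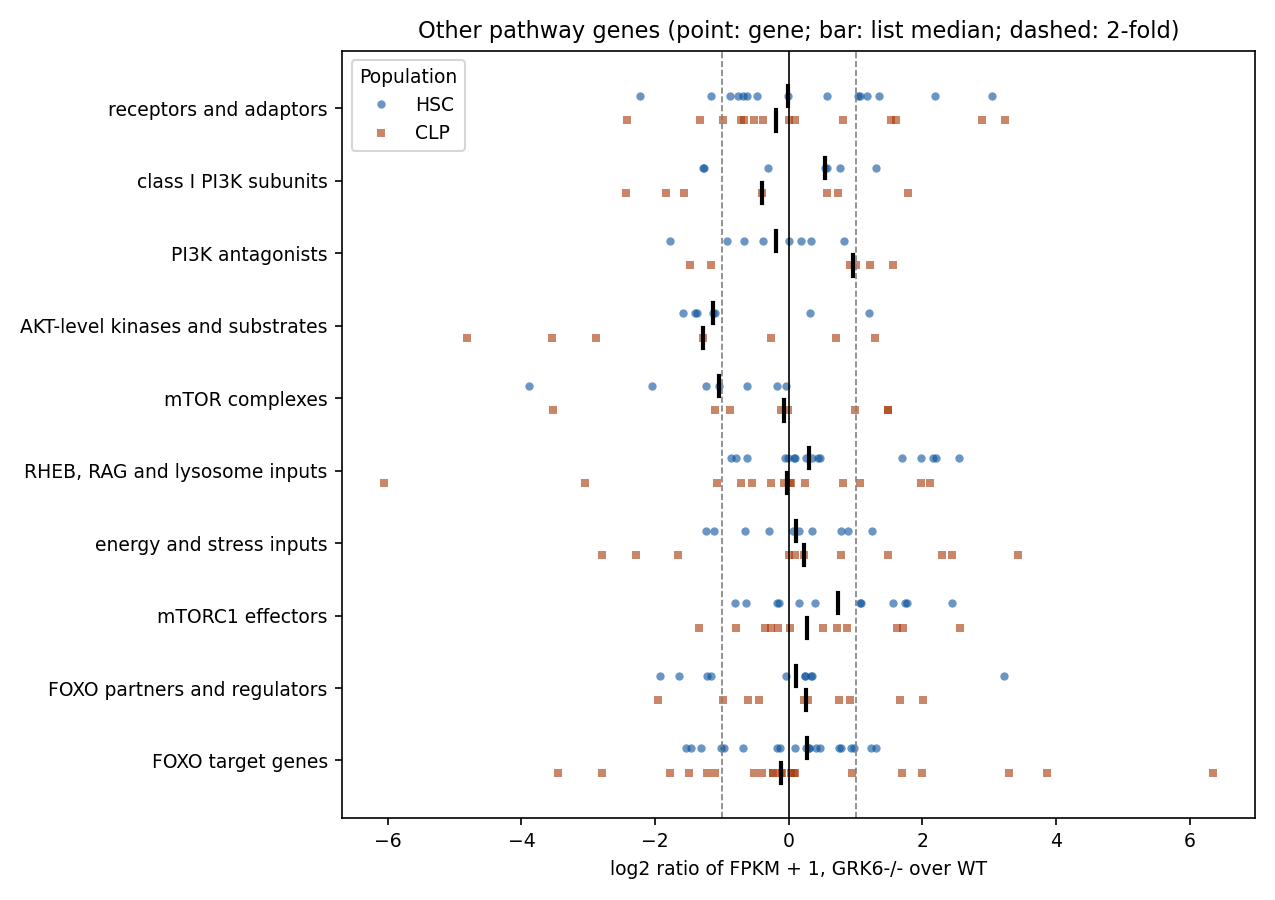
Log2 ratio of FPKM + 1, GRK6-/- over WT, on the horizontal axis for the 115 other pathway genes by list, with circles for HSC and squares for CLP (1 gene per point, 1 library per group), black bars at list medians and dashed lines at 2-fold. The AKT-level list has medians of -1.13 in HSC and -1.28 in CLP, and points of most lists lie on both sides of 0.

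The genes whose pattern over the 4 libraries lay nearest to that of Mtor were found among 11230 genes by Euclidean distance of centred log2(FPKM + 1). They were Znhit1 at a distance of 0.217, Pde4d at 0.287 and Apool at 0.4. Znhit1 had 84.39 (WT) and 84.35 FPKM (GRK6-/-) in HSC and 29.51 (WT) and 4.388 FPKM (GRK6-/-) in CLP. Likeness over 4 libraries is a description of these libraries alone.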

How the data were processed

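The authors amplified cDNA of sorted cells with oligo(dT) priming, sequenced 1 pooled library per group and aligned the reads to mm9. TopHat 1.4.0 is named in the submitters' processing notes, and the counting settings are not given in the sources used here. The values they deposited are FPKM per gene, without counts or confidence bounds, so depth was estimated from the steps of FPKM values up to 0.3 in transcripts of at least 1500 bp (73.75% to 81.55% of 103 to 160 such values lay near 1 to 3 fragments).

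From these FPKM values, rows of a symbol were summed, a missing row counted as 0, and 325 genes named in joint rows were left out. Ratios are log2 of FPKM + 1, which understates the change of low genes, and the threshold was 2-fold. The study's P threshold needs counts and was not applied. limma 3.58.1 (R 4.3.3) was fitted to genes with at least 1 FPKM in at least 2 libraries, with Benjamini-Hochberg adjustment over all of them. Loci overlapped the GENCODE vM1 gene of the same symbol for 99.5% to 99.6% of symbols. Older symbols (RefSeq) gave 4 pathway genes. Scripts were tested on simulated data and ran on matplotlib 3.10.9, scipy 1.17.1, pandas 2.3.3, numpy 2.4.6 and Python 3.11.15.

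The members, pathway lists and markers were chosen with earlier results of these data known. The pathway genes named come from a rule, in each list the largest difference in each direction among genes with at least 5 FPKM and those past 2-fold the same way in both populations. Some of these are counted without being named, and a few single-gene values are not reported here. Alternatives were a pseudocount of 0.1, centring the median log2 ratio on 0, taking each symbol's highest row, use of joint rows, a minimum of 1 FPKM in both libraries, an absolute log2 ratio of at least 2, and for limma the pseudocount, no filter, quantile normalization and a variance trend. Markers without a value were 7 of 51.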

Additional observations from a re-analysis of the deposited data

Results flagged for a closer look

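Some genes had a GRK6-/- over WT log2 ratio of opposite sign in HSC and CLP. For none of them was the difference of HSC from CLP tested, as each group had 1 library. Among the 9 members these were Akt2 (1.03 in HSC and -0.37 in CLP), Tsc2 (-1.44 and 0.0716) and Foxo1 (-1.82 and 0.62). For each of the 3 the ratio in CLP was short of 2-fold, and for Tsc2 the counting interval in CLP included equal levels.

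Among the other named pathway genes, those past 2-fold in opposite directions included the following. Sgk1, a kinase related to AKT, had ratios of 1.197 in HSC and -4.81 in CLP. Srebf2, a regulator of sterol synthesis downstream of mTOR complex 1, had 2.44 and -1.35. The FOXO acetyltransferase gene Ep300 had 3.22 and -1.96, with no entry in GRK6-/- CLP, and the kinase gene Stk4 had -1.17 and 2.01. Of the FOXO targets, Rbl2 had -1.31 and 6.35, with no entry in WT CLP, and Bnip3 had 1.24 and -3.45.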

How the results depend on the processing

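The counts of members past 2-fold, 4 in HSC, 2 in CLP and 0 the same way in both, were the same with a pseudocount of 0.1, centring the median log2 ratio on 0, taking each symbol's highest row and using joint rows. Under these 4 settings the 17 log2 ratios of the members kept their sign and their side of the threshold. At an absolute log2 ratio of at least 2, 0 members remained in HSC and 1, Mtor, in CLP, and of the other pathway genes 10 in HSC (47 before) and 23 in CLP (55 before), where 12.4% and 24.8% of all genes passed. With at least 1 FPKM required in both libraries, 3 of 7 members passed in HSC, where 32% of all genes did. In CLP 0 of 6 members passed, where 40.5% of all genes did. The filter had removed Mtor and Foxo3, which were under 1 FPKM in GRK6-/- CLP. In CLP 36 pathway genes passed under this filter. With a pseudocount of 0.1 the share of all genes past 2-fold was 49.8% in HSC and 59.2% in CLP. No member was called by limma under any alternative, while the variance trend called 1 gene for genotype and 5 for population. No paired analysis was possible because each group had 1 library and no replicate numbers to pair (limma took population as a term), and leaving out a library would leave a group empty. Depth limits Mtor in GRK6-/- CLP (about 1 fragment) and Foxo4 in WT CLP and GRK6-/- CLP (about 2 and 1), and the absence of replicates limits all ratios.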
